A study of Mus musculus with 6 samples.

Results

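The liver mRNA levels of 10 carboxylesterase genes were measured in 3 WT mice and 3 TRIM24C52/55A knockin mice. The genes were Ces1b, Ces1c, Ces1d, Ces1e, Ces1f, Ces1g, Ces2a, Ces2c, Ces3a and Ces3b, chosen by name from the 21528 genes that the tables listed above 0 in at least 1 library, and all 10 were among the 12225 genes tested, those whose mean reached 0.5 FPKM (fragments scaled to transcript length and to library size). TRIM24 is an E3 ubiquitin ligase and a transcriptional co-regulator, and in the knockin mouse, made by genome editing of the germline, 2 cysteines of its RING domain are replaced by alanine in every tissue. The knockin mice were homozygous, and heterozygous matings gave their WT littermates. Both genotypes were C57BL/6 mice (the study's methods give C57Bl/6J as the background of the knockin) aged 5 months that had eaten a diet with 60% fat for 3 months, so the comparison is between genotypes on this diet and mice on another diet were not analysed here. Each library came from the whole liver of a single mouse, and in such bulk RNA fewer cells of a type and less RNA per cell cannot be told apart.

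Carboxylesterases are serine hydrolases that split ester and amide bonds, and most of them reside in the lumen of the endoplasmic reticulum. In the liver they clear ester drugs, pesticides and other foreign compounds, and several also hydrolyse stored triglyceride or other lipid esters, a step that feeds fatty acids into secreted lipoprotein and into oxidation. The mouse has many more of these genes than humans do, in subfamilies that arose by tandem duplication on chromosome 8.

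In the TRIM24C52/55A liver, the Ces3 pair rose and no other carboxylesterase passed the test. Ces3b was 2.89 times its WT mean (log2 fold change 1.54 ± 0.16 SE, adjusted p = 0.00178) and Ces3a was 1.47 times its WT mean (0.55 ± 0.09 SE, adjusted p = 0.0136, both by limma with Benjamini-Hochberg adjustment over 12225 genes). Of the 10 genes, 2 were higher and 0 were lower at an adjusted p under 0.05, and 1 gene, Ces1g, was lower at an unadjusted p under 0.05, a threshold that 23.6% of all genes tested passed in either direction. Among all genes tested, 7.72% were called in either direction, 1.64% higher and 6.09% lower, so calls in the direction of the Ces3 pair were the rarer kind. No other method than limma was used for these calls, apart from its alternative settings.

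The ends of the coding sequences are shown because the members differ there in the tail that retains proteins in the endoplasmic reticulum. They also show how alike the 2 Ces3 genes are. Each line gives the last 27 coding bases of the gene's main transcript in GENCODE M21 (GRCm38), 5′ to 3′, with the last 4 codons in capitals and the stop codon in lower case after them.
Ces1b: cctactgagcacAGAGAACACAAAtga
Ces1c: cctactgaacacACAGAACACAAAtga
Ces1d: tcccacagggaaCATGTTGAGCTCtga
Ces1e: ctgccgacagaaCACACTGAGCTGtga
Ces1f: ccccagccatacCACAATGAGCTGtga
Ces1g: tcccatagggaaCATGTTGAACTGtga
Ces2a: tctcaggacaagCATGCAGAGCTGtag
Ces2c: tctcaggacaagCACAGGGAGCTTtag
Ces3a: agcaggaaagttCCAGAGGAGCTCtga
Ces3b: agcaggaaagttCCAGAGGAGCTCtga
The Ces3a and Ces3b ends were identical over all 27 bases. In 8 of the genes the last codons before the stop were a glutamate codon followed by a leucine codon, the ending of the common retention tail. The first of the last 4 codons encoded histidine in Ces1d, Ces1e, Ces1f, Ces1g, Ces2a and Ces2c, and proline in Ces3a and Ces3b. Ces1b and Ces1c instead ended in the codons CACAAA, and Ces1c is known as the esterase that the mouse liver secretes into plasma.

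The coding sequences of Ces3a and Ces3b were 95.28% identical, more than any other pair of the 10 genes. Within the Ces1 subfamily the 15 pairs were 71.36% to 88.79% identical, with Ces1b and Ces1c the closest, and Ces2a and Ces2c were 82.21% identical. Pairs from different subfamilies were 52.71% to 57.78% identical. Of the 31-base words in the Ces3b transcript, 36.1% also occurred in the Ces3a transcript, and 42.6% of the Ces3a words occurred in Ces3b. Fragments that lie in such stretches fit both genes equally well, so how the 2 genes divide the fragments is uncertain. A fragment moved from one to the other changes their summed FPKM only through the difference in transcript length, 2046 bases for Ces3a and 2403 bases for Ces3b. Ces2c shared 58.2% of its words with other transcripts, most of them with the pseudogene Ces2d-ps, and Ces2a shared 37.4%, most of them with Gm7208. The shares were 23.9% for Ces1b and 30.1% for Ces1c, and they were 5.54% to 8.66% for the other 4 Ces1 genes.

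The members fell into 2 groups of neighbours on chromosome 8. The 6 Ces1 genes lay on the minus strand, from Ces1b at chr8:93056728-93080017 to Ces1g at chr8:93302369-93337308, with gaps of 3.379 kb to 34.8 kb between neighbouring members. A gap of 11397 kb separated Ces1g from Ces2a, and Ces2a, Ces2c, Ces3a and Ces3b followed one another on the plus strand. Every member was a protein-coding gene of 12 to 14 exons in GRCm38, and the intervals in the deposited tables matched the annotation for all 10.

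The Ces3 subfamily comes first because it moved. Ces3b (ENSMUSG00000062181, chr8:105083753-105093929) encodes a liver esterase of the endoplasmic reticulum. Its FPKM was 69.3, 95.1 and 61.2 in the WT livers, given in the order of their replicate numbers here and throughout, and 205, 205 and 242 in the TRIM24C52/55A livers. The lowest TRIM24C52/55A library was above the highest WT library by more than a factor of 2. The means were 75.2 ± 17.7 FPKM in WT and 217 ± 21.05 FPKM in TRIM24C52/55A (SD, n = 3 each), and the 95% confidence interval of the log2 fold change was 1.18 to 1.90. An exact two-sided permutation test of the 6 values gave p = 0.1, the smallest that 3 against 3 libraries allow. Ces3b moved from rank 1024, 775 and 1164 among the genes of the WT libraries, ordered from the highest FPKM, to rank 325, 348 and 271 in TRIM24C52/55A.

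Ces3a (ENSMUSG00000069922, chr8:105048601-105058413) starts 35.2 kb before Ces3b and was the more abundant of the pair. It was at 797, 867 and 860.5 FPKM in WT and at 1382, 1144 and 1187 FPKM in TRIM24C52/55A. As with Ces3b, all 3 TRIM24C52/55A libraries lay above all 3 WT libraries. The means were 841 ± 38.5 and 1238 ± 127 FPKM (SD, n = 3 each), the 95% confidence interval of the log2 fold change was 0.34 to 0.77, and the exact permutation p was 0.1. The Ces3a call was lost without WT replicate 1 (log2 fold change 0.51, adjusted p = 0.0617) and without the filter on low values (adjusted p = 0.055), both by limma.

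The pair rose by unequal factors. Ces3b stood at 0.0869, 0.110 and 0.0711 of the Ces3a level in WT and at 0.149, 0.179 and 0.204 of it in TRIM24C52/55A. The ratios of the 2 groups did not overlap, and the mean log2 ratio differed by 0.999 (exact two-sided permutation p = 0.1, the smallest possible). This ratio rests on the division of shared fragments. The sum of the pair, which rests on it less, was 866, 962 and 922 FPKM in WT and 1587, 1349 and 1429 FPKM in TRIM24C52/55A, 1.59 times the WT mean, and the groups again did not overlap.

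**Figure D1:**
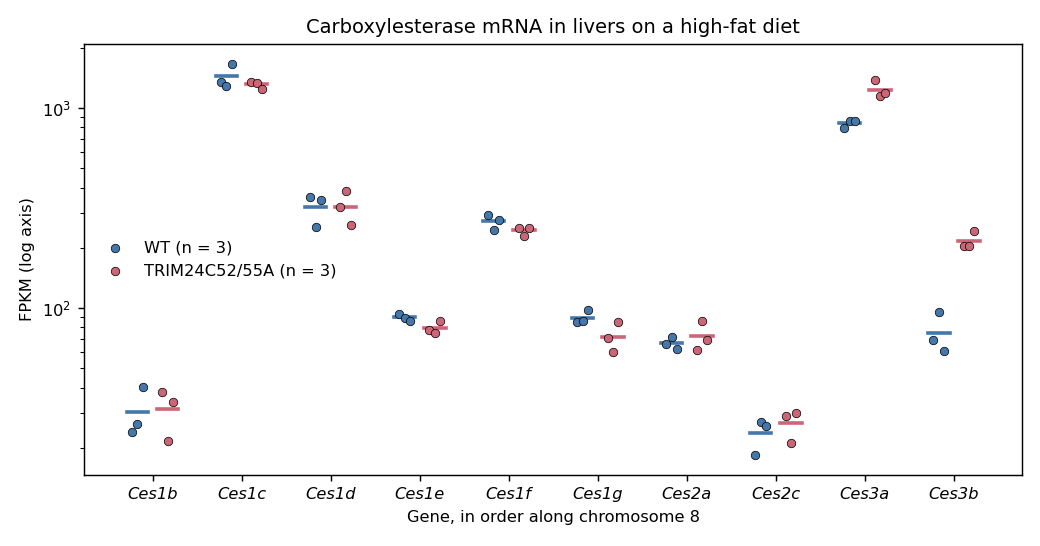
FPKM of each of the 10 carboxylesterases in the 6 livers on a log axis, with 1 point per library, WT and TRIM24C52/55A side by side, and a line at each group's mean. The TRIM24C52/55A points lie above all WT points for Ces3a and Ces3b, while 6 of the other 8 genes overlap between genotypes.

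The proximal promoter of Ces3b is shown because Ces3b changed most among the members. The bases that precede its RefSeq start site on the plus strand, chr8:105083505-105083754 (GRCm38.p6), are given 5′ to 3′ with a TATAAA match in capitals.
Ces3b: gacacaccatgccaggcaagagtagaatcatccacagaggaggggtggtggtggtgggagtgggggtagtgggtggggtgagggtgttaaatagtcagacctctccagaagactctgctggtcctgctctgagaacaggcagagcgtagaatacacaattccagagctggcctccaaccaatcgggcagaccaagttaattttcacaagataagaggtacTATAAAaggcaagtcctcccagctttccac
The match lay 30 to 25 bases upstream of the start, and TATAAA on either strand was present in 12.4% of the 32851 promoter windows of this length. RefSeq windows were matched for 7 of the 10 members (Ces1b, Ces1c, Ces1e, Ces1g, Ces2a, Ces2c and Ces3b), and Ces1g held the letters too, on the reverse strand 26 to 21 bases upstream. Searched on both strands, TTGCNNAA, a letter pattern of the C/EBP family, was found in Ces1b, Ces1c and Ces2a and in 9.56% of all windows. AGGTCA, a hexamer bound by nuclear receptors, was found in Ces2a and in 14.0% of all windows. Patterns of the STAT5 (TTCNNNGAA, 7.02% of all windows), FOXA (TGTTTAC, 3.17%), HNF4 (CAAAGTCCA, 0.384%), HNF1 (0.371%) and NRF2 type (TGACNNNGC, 10.2%) were found in 0 of the 7 windows. Ces1b has a pair of RefSeq start sites, and its match is the same site seen in both of their windows. A match is a description of letters only.

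The Ces1 subfamily holds the best known lipid hydrolases of the family. None of its 6 members was called, and their median log2 fold change was -0.14, beside -0.08 over all genes tested. Ces1g (ENSMUSG00000057074), an esterase whose loss in mice is known to raise liver lipid, came closest. It was at 85.4, 86.3 and 97.5 FPKM in WT and at 70.6, 60.3 and 84.9 FPKM in TRIM24C52/55A. Every TRIM24C52/55A library was below every WT library, but the highest TRIM24C52/55A value was just under the lowest WT value. The log2 fold change was -0.33 ± 0.12 SE (95% confidence interval -0.61 to -0.04, limma adjusted p = 0.159), and without TRIM24C52/55A replicate 3 the gene passed (-0.45, adjusted p = 0.0493).

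Ces1e (ENSMUSG00000061959, chr8:93201218-93229619), also called egasyn, is known for holding β-glucuronidase in the endoplasmic reticulum. Its level was 94.0, 89.1 and 86.7 FPKM in WT and 77.8, 74.7 and 86.1 FPKM in TRIM24C52/55A. The groups did not overlap, yet the nearest values of the 2 groups were almost equal, and the gene was not called (log2 fold change -0.18 ± 0.08 SE, 95% confidence interval -0.36 to 0.01, limma adjusted p = 0.233). Gusb, which encodes β-glucuronidase itself, had a log2 fold change of -0.36 (limma adjusted p = 0.114), also with every TRIM24C52/55A library below every WT library, and is named for its tie to Ces1e, after its values were seen. Non-overlap in this direction was common, as 22.5% of all genes tested had every TRIM24C52/55A library below every WT library, and 2 of the 10 carboxylesterases did. The opposite pattern was found in 6.31% of all genes and in 2 of the 10 carboxylesterases, Ces3a and Ces3b.

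Ces1d (ENSMUSG00000056973, chr8:93166068-93197838) encodes triacylglycerol hydrolase, which mobilises stored triglyceride for secretion in very low density lipoprotein (VLDL). It was at 359, 253 and 347 FPKM in WT and at 319, 385 and 261 FPKM in TRIM24C52/55A. The groups overlapped over nearly their whole range, and the log2 fold change was 0.01 ± 0.17 SE with a 95% confidence interval of -0.38 to 0.40 (limma adjusted p = 0.983). The highest value was in TRIM24C52/55A replicate 2, a library in which 6 of 10 adipocyte markers were highest. The other 4 (Cfd, Cidea, Cidec and Plin4) were highest in WT libraries. The summed level of the list was 37.7 FPKM in TRIM24C52/55A replicate 2 against 39.8 FPKM in WT replicate 1. Cidec alone was at 6.12 and 25.2 FPKM in these 2 libraries. Among the 6, named after their values were seen, were Adipoq (4.55 FPKM), Lep (3.98 FPKM) and Plin1 (3.32 FPKM), against at most 0.127 FPKM for any of them in the other 5 libraries. Adrb3, another of the 6, was at 7.81, 12.4 and 10.6 FPKM in TRIM24C52/55A and at most 2.17 FPKM in WT. In TRIM24C52/55A replicate 2, 6 of 7 stellate cell markers and 5 of 9 hepatocyte markers were highest too. Ces1d is abundant in adipose tissue too, and the part of adipocytes in its level was not tested. Without that library its log2 fold change was -0.13 (limma adjusted p = 0.65).

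Ces1f (ENSMUSG00000031725, chr8:93256236-93279747), another lipid hydrolase of the hepatocyte, was at 292, 246 and 277 FPKM in WT and at 252, 229.7 and 252 FPKM in TRIM24C52/55A. The groups overlapped through WT replicate 2, and the log2 fold change was -0.15 ± 0.09 SE (95% confidence interval -0.35 to 0.05, limma adjusted p = 0.364). Ces1c (ENSMUSG00000057400, chr8:93099015-93131283), the secreted plasma esterase, was the most abundant member in 5 of 6 libraries, with 1356, 1296 and 1669 FPKM in WT and 1355, 1339.8 and 1247 FPKM in TRIM24C52/55A. It ranked 63 to 80 among all genes of a library, and its groups overlapped (log2 fold change -0.12 ± 0.11 SE, 95% confidence interval -0.37 to 0.12, limma adjusted p = 0.547). In TRIM24C52/55A replicate 1, Ces3a stood above it.

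Ces1b (ENSMUSG00000078964), the neighbour of Ces1c, was among the least abundant members and the most variable. It was at 24.1, 26.3 and 40.5 FPKM in WT and at 38.2, 21.7 and 33.9 FPKM in TRIM24C52/55A. Its coefficient of variation within a genotype was 29.5% in WT and 27.5% in TRIM24C52/55A, so its log2 fold change of 0.04 has a wide 95% confidence interval, -0.51 to 0.59 (limma adjusted p = 0.941). In WT, replicate 3 was the highest library for both Ces1b and Ces1c, whose transcripts share words.

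The 2 Ces2 members did not pass either. Ces2a (ENSMUSG00000055730, chr8:104734003-104741634) and Ces2c (ENSMUSG00000061825, chr8:104847068-104854483) encode esterases that hydrolyse ester drugs and acylglycerols. Ces2a was at 66.0, 71.7 and 62.5 FPKM in WT and at 61.7, 86.0 and 69.2 FPKM in TRIM24C52/55A, a log2 fold change of 0.10 with a 95% confidence interval of -0.18 to 0.39 (limma adjusted p = 0.675). Ces2c was at 18.4, 26.9 and 25.7 FPKM in WT and at 28.9, 21.2 and 29.7 FPKM in TRIM24C52/55A, a log2 fold change of 0.17 with a 95% confidence interval of -0.23 to 0.56 (limma adjusted p = 0.618). Both genes overlapped between genotypes. The intervals of the 8 Ces1 and Ces2 members do not show that these genes were equal between genotypes. The bound farthest from 0 was 0.59 among the upper bounds, for Ces1b, and -0.61 among the lower bounds, for Ces1g.

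**Figure D2:**
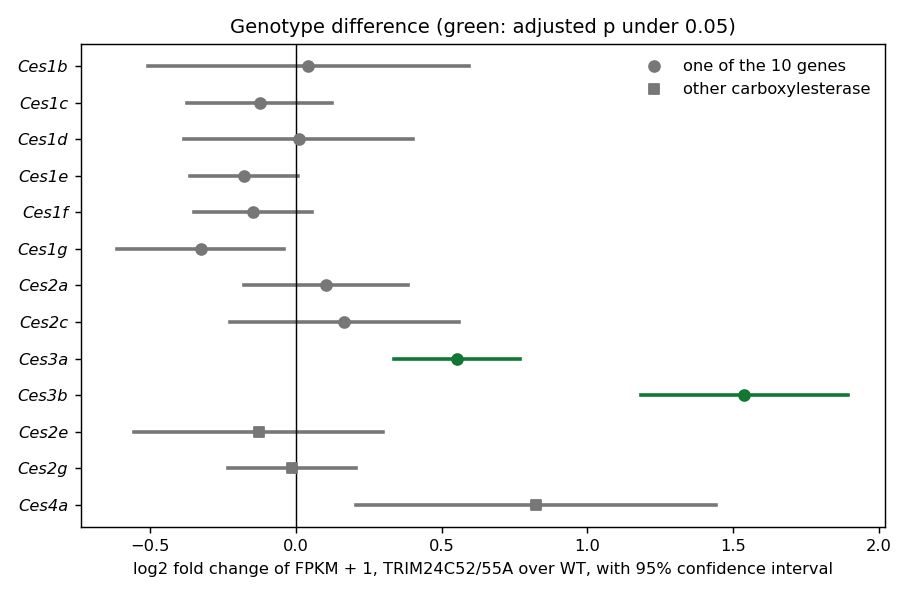
Log2 fold change of FPKM + 1, TRIM24C52/55A over WT, with its 95% confidence interval for the 10 carboxylesterases (circles) and the 3 other carboxylesterase genes that were tested (squares). Ces3a and Ces3b, in green, passed at an adjusted p under 0.05, and the interval of Ces3b starts at 1.18.

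The rise of the Ces3 pair changed the make-up of the summed mRNA of the 10 genes. Ces2e, at 145, 138 and 149 FPKM in WT, and Ces2g are not among the 10. Because FPKM is a level per transcript length, the members can be set side by side. The summed level of the 10 genes was 3162, 3056 and 3528 FPKM in WT and 3790.4, 3568 and 3494 FPKM in TRIM24C52/55A, from 0.471% to 0.563% of all FPKM in a library. The sums overlapped between genotypes and the ratio of the means was 1.11. Within that sum, the Ces3 pair made up 27.4%, 31.5% and 26.1% in WT and 41.9%, 37.8% and 40.9% in TRIM24C52/55A. The shares of the 2 groups were apart, and a share does not change when all values of a library are multiplied by the same factor. The 6 Ces1 genes made up 69.9%, 65.3% and 71.4% in WT and 55.7%, 59.2% and 56.3% in TRIM24C52/55A, while the 2 Ces2 genes stayed between 2.39% and 3.23%. Of the single members, Ces3b went from 1.73% to 3.11% in WT to 5.42% to 6.92% in TRIM24C52/55A, Ces3a from 24.4% to 28.4% to 32.1% to 36.5%, and Ces1c from 42.4% to 47.3% to 35.7% to 37.6%. Being shares of 1 total, these cannot move independently.

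**Figure D3:**
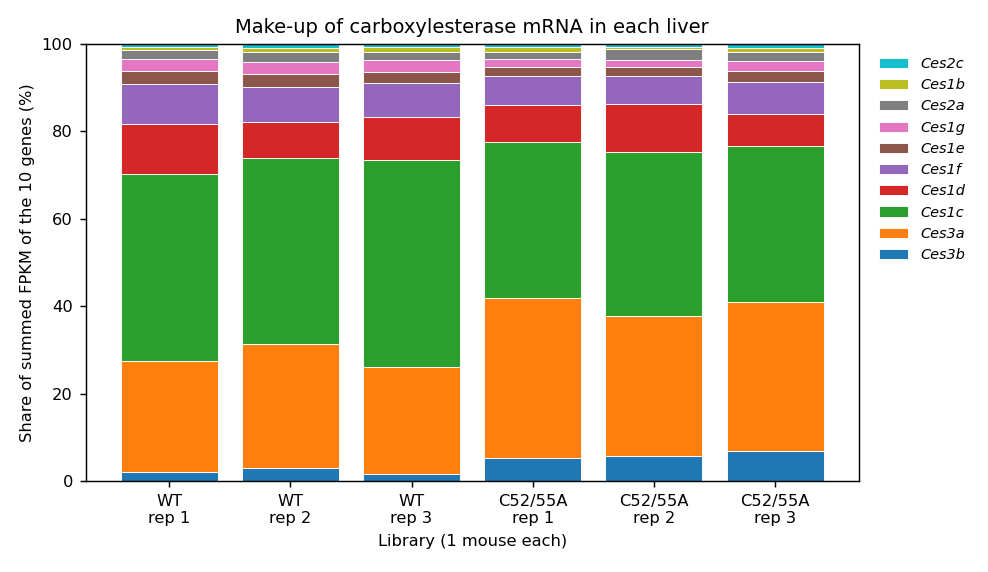
Share of the summed FPKM of the 10 carboxylesterases, in percent, taken by the Ces1, Ces2 and Ces3 members in each of the 6 libraries. The Ces3 segment spans 26.1% to 31.5% in the WT libraries and 37.8% to 41.9% in the TRIM24C52/55A libraries.

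The order of the levels changed where the Ces3 genes stand. In WT, Ces1c was above Ces3a in every library, Ces3a was above Ces1d and Ces1f, and these 2 overlapped each other. Next came Ces1e, Ces1g, Ces3b and Ces2a, neighbours whose libraries overlapped, and then Ces1b and Ces2c, which also overlapped. In TRIM24C52/55A, Ces3a overlapped Ces1c at the top, and Ces3b had moved out of the middle set to overlap Ces1f, above Ces1e, Ces2a and Ces1g. Ces1d and Ces1f were just apart in this group.

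Other carboxylesterase genes of the mouse were described from a list of 10, of which 9 were listed and 3 were tested with limma, with 0 called and 1, Ces4a, at an unadjusted p under 0.05. Ces2e, an esterase gene between Ces2c and Ces3a, was at 145, 138 and 149 FPKM in WT and at 128, 98.9 and 179.9 FPKM in TRIM24C52/55A (log2 fold change -0.13, limma adjusted p = 0.737). Ces2g was at 18.9, 19.1 and 18.9 FPKM in WT and at 16.8, 18.6 and 21.2 FPKM in TRIM24C52/55A (-0.01, limma adjusted p = 0.957). In both genes the TRIM24C52/55A libraries lay on either side of the WT libraries. Ces4a, the gene that follows Ces3b on the chromosome, was low, at 0.229, 0.489 and 0.182 FPKM in WT and 1.16, 2.56 and 0.565 FPKM in TRIM24C52/55A. Its libraries did not overlap, but it missed the threshold (log2 fold change 0.82 ± 0.27 SE on the FPKM + 1 scale, limma adjusted p = 0.107). It passed in 1 of 14 alternative settings, without TRIM24C52/55A replicate 3 (limma adjusted p = 0.0303), and its log2 fold change ranged from 0.51 to 1.78 over them. The other 6 had means under the 0.5 FPKM filter. Ces2b was not listed in WT replicates 1 and 2, was at 0.0615 FPKM in WT replicate 3 and at 0.373, 1.41 and 0.0320 FPKM in TRIM24C52/55A, and Ces1a, Ces2d-ps, Ces2f, Ces2h and Ces5a did not exceed 0.228 FPKM in any library.

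None of the tested genes around the members was called, beside 7.72% of all genes tested. Of 54 other genes of the tables that lie within 500 kb of a member by the intervals of the tables, in which overlapping genes can share 1 merged interval, 33 were tested with limma, 0 passed, 3 had an unadjusted p under 0.05, and their median log2 fold change was -0.05. Cbfb and D230025D16Rik, on the far side of Ces3b, had every TRIM24C52/55A library above every WT library, with log2 fold changes of 0.36 (limma adjusted p = 0.102) and 0.38 (limma adjusted p = 0.222). They were the 2 flanking genes of 33 with that pattern, which 6.31% of all genes showed. Lpcat2 (-0.22) and Gm3272 (-0.43) were the 2 with the opposite pattern, which 22.5% of all genes showed. Of the 3 flanking genes with an unadjusted p under 0.05, against 23.6% of all genes, Cbfb had a positive log2 fold change and Gm3272 and Cmtm4 (-0.29) had negative ones. These genes were named after their values were seen, as was RP23-144H18.4, an unprocessed transcript annotated on the minus strand within Ces3a. It was at 2.72, 2.93 and 5.76 FPKM in WT and 10.5, 4.28 and 5.98 FPKM in TRIM24C52/55A. Its groups overlapped, and since the strand setting is not given in the sources used here, its reads cannot be told apart from those of Ces3a.

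**Figure D4:**
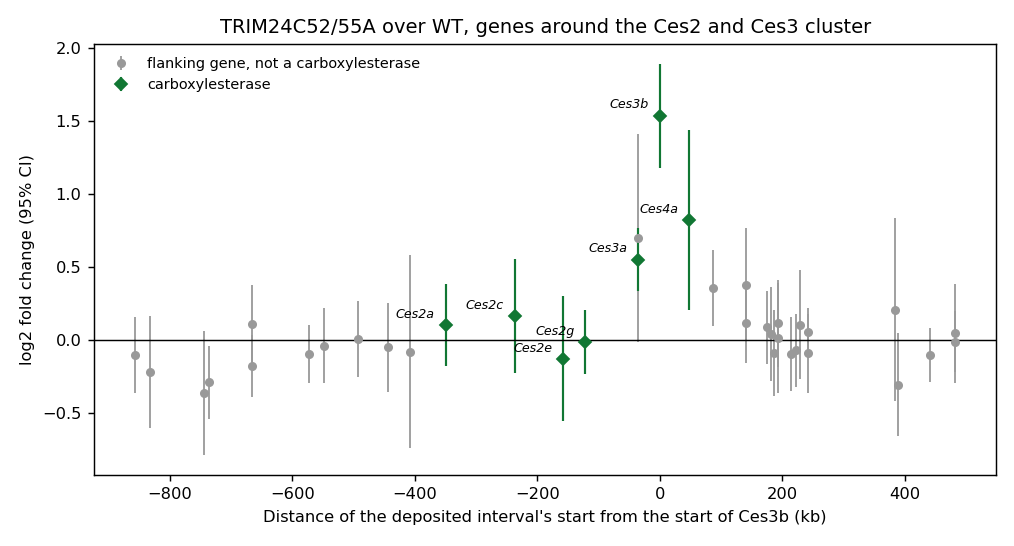
Log2 fold change of FPKM + 1, TRIM24C52/55A over WT, with its 95% confidence interval, against the distance in kb from the start of Ces3b to the start of the gene's deposited interval, which overlapping genes can share, for carboxylesterases (green diamonds) and for the other genes tested there (grey circles). Ces3b at 1.54 and Ces3a at 0.55 are the carboxylesterases that passed the test, 0 of the flanking genes passed, and the grey circle at 0.70 above Ces3a is RP23-144H18.4, the transcript annotated within it.

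Which genes followed the Ces3 pair most closely over the 6 libraries was measured by the root mean square distance between deviations of log2(FPKM + 1) from each gene's mean. Kyat1, a kynurenine aminotransferase gene, was nearest to Ces3a, at a distance of 0.0409. It was at 47.5, 51.8 and 48.4 FPKM in WT and at 78.7, 69.5 and 68.4 FPKM in TRIM24C52/55A. Gm16551 was nearest to Ces3b, at a distance of 0.129, with 0.628, 0.945 and 0.583 FPKM in WT and 3.13, 3.28 and 3.91 FPKM in TRIM24C52/55A. After these came Gm4788, Ly6c1, Slc22a30 and Mup10 for Ces3a and Cyp4a12a, Mup16, C8b and Gm45470 for Ces3b, named after their values were seen. These genes were chosen by their likeness to the pair, so their own differences between genotypes add no separate support.

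The other genes of the pathway were taken from 4 lists. Of 24 tested lipid hydrolases outside the family, 0 were called higher (1 under median-of-ratios or quantile scaling) and 4 lower. Over all genes tested, 1.64% were called higher and 6.09% lower. The median log2 fold change of the list was -0.21, beside 0.03 for the 10 carboxylesterases and -0.08 for all genes tested. The list median was -0.11 under median-of-ratios scaling and -0.10 under quantile normalisation. Mgll, which encodes monoacylglycerol lipase, fell by 1.04 on the log2 scale (limma adjusted p = 0.00162), and Lipg, endothelial lipase, fell by 1.42 (limma adjusted p = 0.00321). Lipa, lysosomal acid lipase, and Ddhd2, a triglyceride lipase and phospholipase, fell by 0.53 and 0.49 (limma adjusted p = 0.011 and 0.0167). In all 4 every TRIM24C52/55A library was below every WT library, as in 8 of the 24 genes and in 22.5% of all genes tested. Lipa passed in 13 and Ddhd2 in 10 of 15 alternative settings. The number called lower was 2 without WT replicate 1 or TRIM24C52/55A replicate 1 and 6 without TRIM24C52/55A replicate 2 or 3. Aadac, a deacetylase of the endoplasmic reticulum membrane that is related to the carboxylesterases, was at 475, 468 and 468 FPKM in WT and 506, 513 and 498 FPKM in TRIM24C52/55A (0.10, limma adjusted p = 0.403), and is named for this relation, after its values were seen.

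Of 10 genes of VLDL assembly, the pathway that receives lipid freed by Ces1d, 0 were called higher and 1 lower (4 under TPM). All 10 had a negative log2 fold change on the deposited scale (median -0.21, and -0.11 and -0.09 under the same 2 scalings). On that scale 8005 of all 12225 genes tested were negative too. The 1 called gene was P4hb, protein disulphide isomerase, which fell by 0.31 (limma adjusted p = 0.0454), and it passed in 5 of 15 alternative settings. The list had 2 lower calls without TRIM24C52/55A replicate 3 and 0 without any other single library. Of 12 other esterases and hydrolases of foreign compounds, 0 were called higher and 1 lower, with a median of -0.24 (-0.14 and -0.13 under those scalings). The 1 gene was Esd, esterase D, which fell by 0.35 (limma adjusted p = 0.0482) and passed in 5 of 15 settings. The list had 3 lower calls without TRIM24C52/55A replicate 3, 1 without TRIM24C52/55A replicate 2 and 0 without any other single library. Under median-of-ratios or quantile scaling it instead had 1 gene called higher and 0 lower. The background of lower calls over all genes was 6.09%.

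Among 18 regulators known to act on liver drug or lipid metabolism, 0 were called higher and 3 lower. The shares over all genes tested were 1.64% higher and 6.09% lower. The regulators had a median of -0.13 that became 0.02 under quantile normalisation. Without WT replicate 1 the number called lower was 1, and without TRIM24C52/55A replicate 3 the number called higher was 1, Bcl6. Pparg, the lipogenic nuclear receptor, was at 9.42, 5.55 and 8.39 FPKM in WT and at 1.90, 2.27 and 2.71 FPKM in TRIM24C52/55A and fell by 1.40 (limma adjusted p = 0.00491). Nr1i3, the constitutive androstane receptor that senses foreign compounds, fell by 0.80 (limma adjusted p = 0.0127) and passed in 13 of 15 settings, and Cebpb fell by 0.94 (limma adjusted p = 0.0428) and passed in 5 of 15 settings. Hnf4a, a master regulator of hepatocyte genes, was 0.04 apart (limma adjusted p = 0.798). Bcl6, a repressor, was at 3.27, 6.36 and 3.08 FPKM in WT and at 28.7, 26.8 and 4.91 FPKM in TRIM24C52/55A (1.75, limma adjusted p = 0.107, and 0.00174 without TRIM24C52/55A replicate 3). TRIM24C52/55A replicate 3, which overlapped WT for Bcl6, was the highest library for Ces3b. This is 1 library, and a link between Bcl6 and Ces3b was not tested. Trim24 itself was at 5.54, 4.85 and 5.96 FPKM in WT and at 6.15, 4.31 and 8.46 FPKM in TRIM24C52/55A (0.14, limma adjusted p = 0.713), and a gene level cannot check a point mutation.

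**Figure D5:**
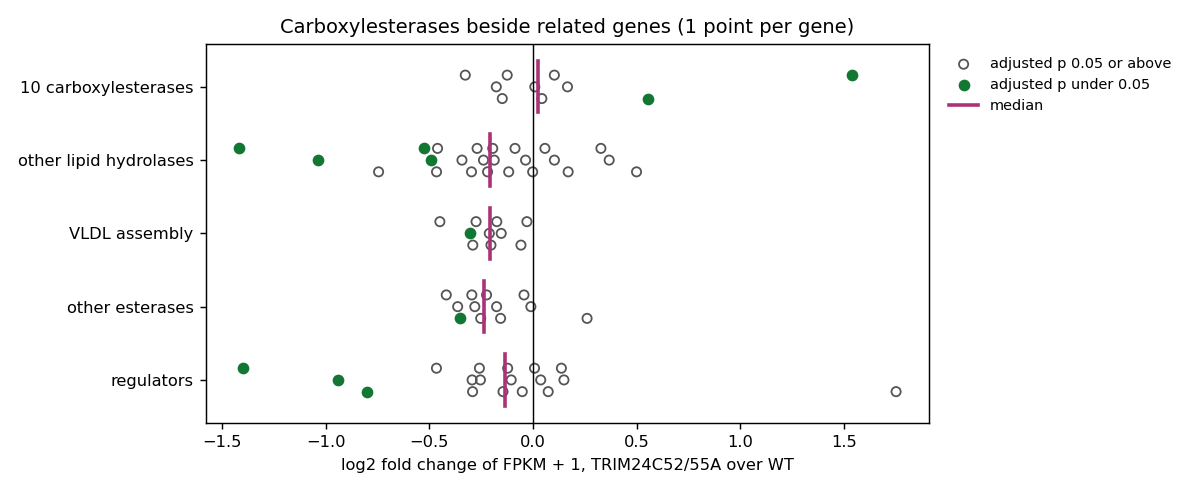
Log2 fold change of FPKM + 1, TRIM24C52/55A over WT, with 1 point per tested gene for the 10 carboxylesterases and the 4 related lists, filled where the adjusted p was under 0.05 and with a line at each median. The 2 filled carboxylesterases lie to the right of 0 and all 9 filled genes of the other lists lie to the left.

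The liver identity and the other cell types of the libraries were checked with marker lists. Of 10 hepatocyte markers, 9 were listed, and their summed level was 30383 to 31277 FPKM in WT and 26044 to 29034 FPKM in TRIM24C52/55A. Apoa2 alone went from a mean of 13538 to 8963 FPKM, a larger difference than that of the sums. With limma, 1 of the 9 was called higher (Cps1) and 1 lower (Apoa2), and their median log2 fold change was 0.04. The call of Cps1 was lost without any single library but TRIM24C52/55A replicate 2 and without the filter on low values, and Apoa2 lost its call without TRIM24C52/55A replicate 1 and without that filter. The summed level of 10 adipocyte markers was 24.6 to 39.8 and 9.65 to 37.7 FPKM, that of 8 Kupffer cell and macrophage markers 166 to 216 and 144 to 193 FPKM, and that of 6 sinusoidal endothelial markers 89.4 to 94.9 and 79.1 to 88.8 FPKM. Stellate cell markers summed to 208 to 218 and 206 to 262 FPKM, and cholangiocyte markers to 2.84 to 5.54 FPKM over the 6 libraries. Of 9 intestinal and pancreatic markers, 5 were listed, at 179 to 187 and 84.0 to 114 FPKM, most of it Fabp2, with Cpa1 listed in 1 library only. Among the genes on the lists for other cells, limma called Fabp2 lower (log2 fold change -1.21, adjusted p = 0.00217), Cela1 higher (1.06, adjusted p = 0.0469) and Lyve1 lower (-1.26, adjusted p = 0.0281). It also called Plin4 and Cidec lower (-1.26 and -2.36, adjusted p = 0.0142 and 0.0286) and Adrb3 higher (1.86, adjusted p = 0.000716). Which cells these transcripts came from, hepatocytes included, was not tested. Of the Kupffer cell, stellate cell and cholangiocyte markers limma called 0, and 2 of each list had an unadjusted p under 0.05. Fabp2 and Adrb3 passed in 15 of 15 alternative settings, Plin4 in 11, Lyve1 in 9, Cidec in 8 and Cela1 in 6. These marker genes were named after their values were seen. The part of these cells in the Ces3 difference was not tested. The Y-linked gene Eif2s3y was at 24.2 to 28.8 FPKM in all 6 libraries, and Xist did not exceed 0.00403 FPKM.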

How the data were processed

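Liver RNA of 3 WT and 3 TRIM24C52/55A mice was sequenced, with 1 library per mouse, grouped by the labelled genotype. The authors deposited 1 table of FPKM per library, which lists only genes above 0, and a gene missing from a table was taken as 0. The submitters' processing notes name bcl2fastq, Salmon 0.14.0, DESeq2 1.30.0 and GRCm38, with no roles, and the annotation and strand setting are not given in the sources used here. DESeq2 was not used here.

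The 12225 genes whose mean FPKM reached 0.5 were analysed as log2(FPKM + 1) with limma 3.58.1 in R 4.3.3 (genotype only, mean-variance trend), with Benjamini-Hochberg adjustment over all of them. Fold changes on this scale understate the change of low genes. Genes with an adjusted p under 0.05 are called. Exact two-sided permutation tests used FPKM and cannot go below p = 0.1. No list was tested as a set.

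The members and lists were chosen with earlier results of these data known. All 10 members were named, with the other listed carboxylesterases, Trim24, up to 4 called genes of each list, any regulator, and the gene nearest to each called member. Other genes, such as marker genes, were named after their values were seen, and the text says so.

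No 2 libraries were identical. Spearman correlations across genes, which are not independent replicates, were 0.957 to 0.966 within and 0.956 to 0.960 between genotypes. Total counts are unknown. From the steps between low FPKM values, depth relative to WT replicate 1 was 0.963 to 1.03, and FPKM summed to 644619 to 648221 in WT and 673244 to 676791 in TRIM24C52/55A. Gene models were from GENCODE M21 and promoter windows from RefSeq (GRCm38.p6).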

Additional observations from a re-analysis of the deposited data

How the results depend on the processing

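The results were recomputed under 15 alternative settings. Ces3b was called in 15 of 15 (log2 fold change 1.41 to 1.72, limma adjusted p from 0.000832 to 0.0197) and Ces3a in 13 of 15 (0.47 to 0.66, limma adjusted p from 0.0102 to 0.0617). The number of the 10 genes called higher was 1, in place of 2, without the filter on low values, where 21528 genes were tested, and 1 to 2 when each library was left out in turn (1 without WT replicate 1). The number called lower was 0 to 1 when each library was left out (1 without TRIM24C52/55A replicate 3, Ces1g). For uncalled genes the sign turned for Ces1b (-0.0195) and Ces1d (-0.0551) under TPM and for Ces1f (0.0256) under quantile normalisation. Leaving out 1 library gave -0.12 to 0.28 for Ces1b, -0.15 to 0.15 for Ces1d and -0.0273 to 0.209 for Ces2a. The causes were not tested.

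Over all genes, 944 were called (200 higher and 744 lower), against 347 without the filter, 1488 under TPM (193 and 1295), 294 to 1280 with 1 library left out, and, with another balance of directions, 655 when libraries were scaled by medians of ratios (250 and 405) and 633 under quantile normalisation (255 and 378). The median log2 fold change of all genes was -0.13 under TPM and 0.01 under the latter 2, and that of the 10 carboxylesterases was -0.04, 0.13 and 0.17, in place of 0.03.

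The labels do not say whether the replicate numbers pair the mice, and 3 libraries per genotype cannot settle it. Deviations from the group mean correlated at -0.123, -0.0988 and 0.00267 for the 3 same-numbered pairs. With the replicate block, 578 genes were called and the number of the 10 called higher was 2 and lower 0, with Ces3b at a limma adjusted p of 0.00654 and Ces3a at 0.0376.

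With 3 mice per genotype, the 95% confidence intervals of the uncalled members left room for differences in either direction for Ces1b, Ces1c, Ces1d, Ces1e, Ces1f, Ces2a and Ces2c. The absolute depth is unknown, which limits Ces4a and Ces2b most, as their values are low. The separate levels of Ces3a and Ces3b rest on how shared fragments were divided.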
